A study of Mus musculus with 12 samples.

Results

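The neuregulins Nrg1, Nrg2 and Nrg3 and the ErbB receptors Erbb2, Erbb3, Erbb4 and Egfr were followed by name in the gene counts of single cells from the developing mouse cochlea, 7 of the 24489 genes in the count table. Cells carrying a Cre-driven tdTomato reporter (Ai14) were sorted from the cochlea and sequenced with Smart-seq2, a full-length method without molecule barcodes. The labels give PVcre;Ai14 for every plate except 1 of the 2 at E14.5, which they give as TrkCcre. The study's methods name an Ntrk3 (TrkC) driver for all embryos of that stage, so the driver of the other plate is in doubt. Embryos were taken at E14.5 (2 plates), E15.5 (2), E16.5 (3), E17.5 (1) and E18.5 (2), and pups at P3 (2). The animals carried no other allele or treatment, and which cells a plate holds depends on where the Cre driver had been active and on the sort.

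Neuregulins are growth factors of the EGF family that neurons display on their axons or shed, and ErbB receptors are the tyrosine kinases that read them. Erbb3 binds neuregulin but has almost no kinase activity of its own, Erbb2 binds no known ligand but has an active kinase, and the pair forms the working receptor of Schwann cells. Erbb4 binds neuregulins and signals alone or with Erbb2, whereas Egfr is the receptor of EGF and related ligands, and axonal Nrg1 is known for its control of Schwann cell survival, migration and myelination.

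Of 4226 cells kept, 2168 fell in clusters led by neuronal markers and are called SGN-like (spiral ganglion neurons), 1106 were glia-like, 570 OM-like (otic mesenchyme) and 74 HC-like (hair cells). Levels (CPM) are counts scaled to the library size with TMM normalization, in the summed counts of 1 class in 1 plate. The plate is thus the replicate and cells are not. The 6 plates whose names begin with SS2_20 (E14.5 to E17.5, including 1 of the 3 plates of E16.5) hold all 3 main classes, with 437 SGN-like, 1080 glia-like and 545 OM-like cells, and served for comparisons of classes. The other series are SS2_18 (2 plates of E16.5), SS2_19 (E18.5) and SS2_15 (P3), so plate series and stage go together. Plates held between 80997594 and 303906928 counts (median 108651215). In the SS2_20 plates the neuronal sums had 11105 to 12757 CPM of 8 neuronal markers and the glial sums 5978 to 10166 CPM of 9 glial markers, with none of either list at 0 in its own class. Of 9 mesenchymal markers the glial sums of the SS2_20 plates held 1416 to 5555 CPM and the OM-like sums 8313 to 17791. Their part in the glial levels was not tested. Each plate held cells pooled from several animals. Whether 2 plates of a stage came from separate pools is not given in the sources used here, so the spread between plates may be partly technical.

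Promoters are shown for the ligand and the receptor that differed most between neurons and glia among members with a promoter sequence available. Nrg1 and Erbb3 differed more but had none. Each run holds the 250 bases before the RefSeq start in the build GRCm38.p6, 5′ to 3′ on the strand of the gene. The Nrg3 promoter lies on the minus strand at chr14:39473089-39473338 and has a GC content of 72.4%, with capitals marking CAGCAT.
Nrg3: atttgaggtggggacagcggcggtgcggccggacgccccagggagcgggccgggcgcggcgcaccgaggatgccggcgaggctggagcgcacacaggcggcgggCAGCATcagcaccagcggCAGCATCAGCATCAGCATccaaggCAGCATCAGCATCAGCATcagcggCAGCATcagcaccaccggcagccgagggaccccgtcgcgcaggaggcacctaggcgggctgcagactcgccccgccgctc
The Erbb2 promoter lies on the plus strand at chr11:98412234-98412483 and has a GC content of 66.0%, with capitals marking CCAAT.
Erbb2: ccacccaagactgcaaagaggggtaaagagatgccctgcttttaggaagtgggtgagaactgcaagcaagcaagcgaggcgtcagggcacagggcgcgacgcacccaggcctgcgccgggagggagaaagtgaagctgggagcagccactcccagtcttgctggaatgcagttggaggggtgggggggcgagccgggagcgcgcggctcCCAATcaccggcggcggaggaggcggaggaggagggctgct
Of the members, 4 had a promoter in the table used (Nrg3, Erbb2, Erbb4 and Egfr). A first search on both strands for 3 motifs found no match in any of the 4. These were ACAAAG, the core read by SOX factors, which is in 16.46% of all 32851 promoters of this length, and the E-box forms CAGCTG (13.0%) and CATCTG (14.4%). CCAAT and CAGCAT were added after these sequences had been read, so their presence is a description and no result of a search. CCAAT is in 33.8% of all promoters and among the 4 was in that of Erbb2 alone, 41 bases before the start. CAGCAT is in 13.6% of all promoters and occurred 8 times in that of Nrg3, a number reached in 3 promoters of the 32851.

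The first comparison asked in which class each ligand and receptor was found, with glia-like against SGN-like sums in the SS2_20 plates. Nrg1 and Nrg3 were higher in neurons and Erbb2 and Erbb3 higher in glia by log2 differences of 6.42 or more in size. Of the 7 members 6 passed the test (edgeR's quasi-likelihood test, adjusted p under 0.05 over all genes), where 56.5% of all 14727 genes tested did. Erbb2 and Erbb3 belong to the glial gene list that the study drew from its E18.5 cells by correlation with Sox10. The study's methods remove those genes because of glial contamination in neuronal clusters, which they call greatest at E18.5. Here that list was kept out of the clustering.

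Nrg1, the ligand of Schwann cell precursors, had 175 and 155 CPM in the neurons of the E14.5 plates, 191 and 181 at E15.5, 188 at E16.5 and 138.7 at E17.5. The same plates gave 0.768 and 0 CPM in glia at E14.5, 0.265 and 0.0385 at E15.5, 0 at E16.5 and 0.595 at E17.5. No glial plate came near a neuronal one. The log2 difference of Nrg1, glia less neurons, was -9.21 ± 1.05 (SE, n = 6 plates) with an adjusted p of 7.21e-07 by edgeR. Nrg1 was counted in 85.1% to 91.4% of neurons and in 0% to 3.35% of glial cells, at like depths (median counts per cell 228326 to 267376 in neurons and 228261 to 284212 in glia). The gene lies on chromosome 8 (31814551 to 32884029, minus strand, mm10) and shares exon sequence with Gm26578 on the other strand. Whether reads were counted by strand was not stated, so reads of that pair cannot be told apart.

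Nrg3, a neuregulin of neurons that binds Erbb4, had 35.6 and 27.0 CPM in the neurons of the E14.5 plates, 72.1 and 70.7 at E15.5, 85.8 at E16.5 and 116 at E17.5. In glia its lowest plate had 0, the median was 0.381 and the highest 1.04 CPM. The groups did not overlap, and the log2 difference of Nrg3 was -7.15 ± 0.75 (SE, adjusted p = 2.63e-07, edgeR). Nrg2, the third ligand, was low in both classes. Its neuronal plates ran from 0.298 to 3.12 CPM (median 1.97), and all 6 glial plates together held 9 counts, at most 0.0991 CPM. The log2 difference of Nrg2 was -5.63 ± 1.36 (SE, adjusted p = 0.00179, edgeR), a size that rests on those 9 counts and on the prior count of the fit. Per kilobase of exon the neuronal levels stood at 16.6 ± 1.98 CPM per kb for Nrg1, 9.96 ± 4.81 for Nrg3 and 0.603 ± 0.418 for Nrg2 (SD, n = 6 plates). Nrg1 exceeded Nrg3 in each of the 6 plates on the CPM scale. Per kb it did so in the 5 plates before E17.5, and at E17.5 Nrg3 had 17.0 and Nrg1 13.4 CPM per kb.

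Erbb3, the neuregulin-binding part of the glial receptor, had 358 and 378 CPM in the glia of the E14.5 plates, 331 and 355 at E15.5, 401 at E16.5 and 332 at E17.5. In neurons the lowest plate had 0.107, the median was 0.4932 and the highest 2.02 CPM. The log2 difference of Erbb3 was 9.09 ± 0.88 (SE, adjusted p = 9.96e-08, edgeR). The glial plates lay within a narrow range, with a CPM per kb of 59.7 ± 4.50 (SD, n = 6). Erbb3 was counted in 79.9% to 93.5% of glial cells and in 1.45% to 7.25% of neurons.

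Erbb2, the partner that carries the kinase, had 252 and 280 CPM in glia at E14.5, 206 and 245 at E15.5, 177 at E16.5 and 228 at E17.5. Its neuronal plates ran from 0.161 to 6.86 CPM (median 1.23), and again the groups did not overlap. The log2 difference of Erbb2 was 6.42 ± 0.63 (SE, adjusted p = 1.17e-07, edgeR). Per kb of exon glia had 44.5 ± 6.95 CPM of Erbb2 (SD, n = 6). Both receptors were counted in the same cell in 54.4% to 77% of glial cells over the 6 plates. Erbb2 shares exon sequence with Mien1 on the other strand, with the same limit as for Nrg1.

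Cells with markers of melanocytes, which also use Erbb3, were among the glia-like cells. The 4 melanocyte markers summed to 2.20 to 361 CPM in the glial sums of the 6 plates, and 4.60% to 9.62% of glial cells carried them. With those cells left out, an alternative added after the data were seen, the difference of Erbb3 was 9.09 ± 0.89 on the log2 scale and that of Erbb2 was 6.42 ± 0.64.

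Erbb4 and Egfr were low in both classes. Erbb4 had 1.31 to 7.24 CPM (median 1.90) in glia and 0.0677 to 2.26 CPM (median 1.11) in neurons, and its log2 difference of 1.50 ± 0.89 (SE) did not pass (adjusted p = 0.163, edgeR). Egfr had 0 to 0.443 CPM in glia and 0 to 4.02 CPM in neurons, overlapping ranges. Its log2 difference of -2.54 ± 1.02 (SE, adjusted p = 0.0407) did not hold in 8 of 20 alternatives. With the plate as a block the adjusted p was 0.246, without E14.5 replicate 2 it was 0.469 and without E16.5 replicate 3 it was 0.121. In the cells of each class with fewer of the other's markers (those at or under the median of their plate) the sign turned, with a log2 difference of 3.65 ± 1.32 (adjusted p = 0.0340). In that E14.5 plate 62 counts of Egfr came from 2 of 61 neurons.

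**Figure D1:**
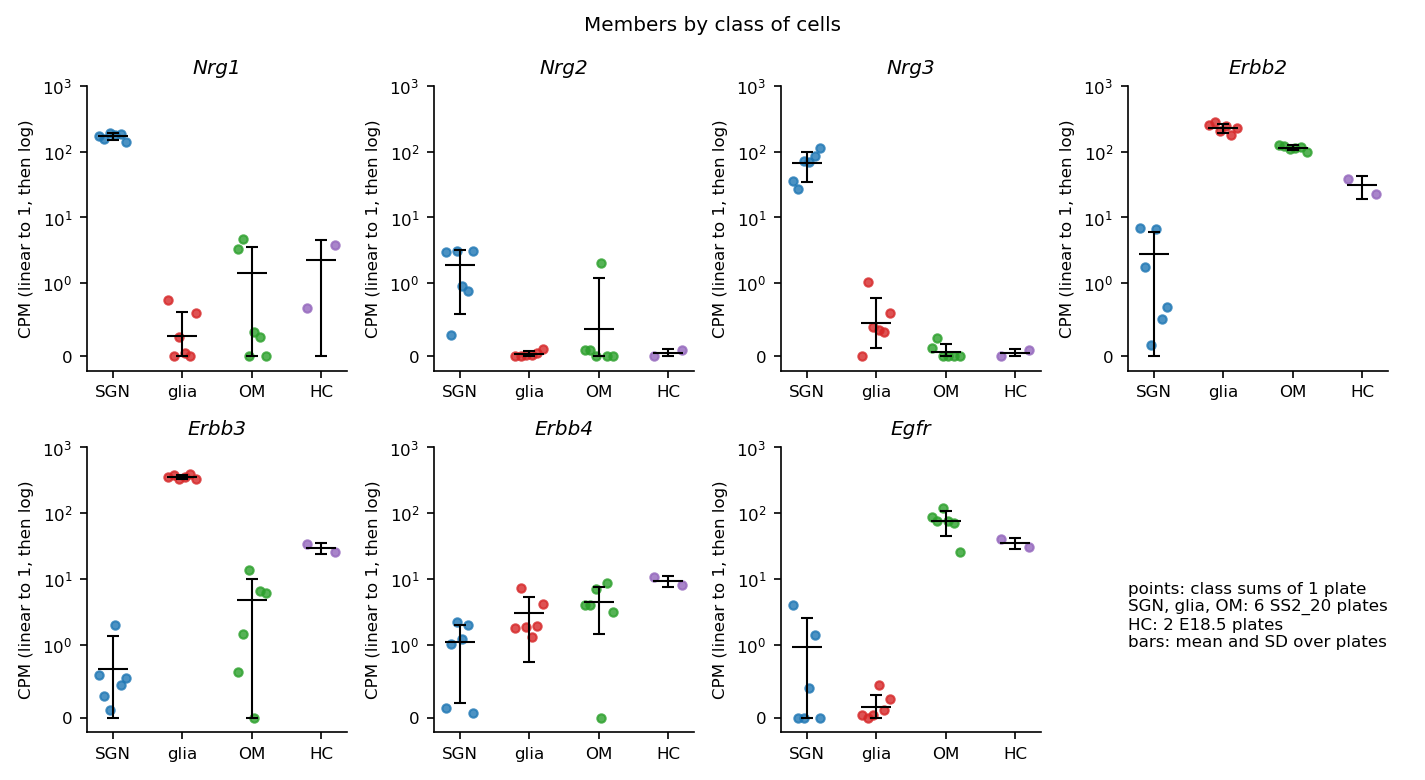
Level of each member in CPM (vertical axis, linear to 1 and logarithmic above) by class of cells, with 1 point for each plate. Bars give the mean and SD over plates and lower bars stop at 0, with the 6 SS2_20 plates for neurons (SGN), glia and mesenchyme (OM) and the 2 E18.5 plates for hair cells (HC). Nrg1 and Nrg3 are high in neurons, Erbb3 (331 to 401 CPM) in glia, Erbb2 in glia and mesenchyme, and Egfr in mesenchyme and hair cells.

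The OM-like cells of the same plates carried Erbb2 and Egfr, with little Erbb3. Of the members 4 differed from glia (25.9% of all genes tested did) and 5 from neurons (56.8%). Egfr, the EGF receptor, had 87.8 and 75.5 CPM in OM-like sums at E14.5, 121 and 76.4 at E15.5, 71.9 at E16.5 and 25.8 at E17.5. It was above every glial and neuronal plate, and was counted in 15.2% to 46.7% of OM-like cells. The log2 difference of Egfr was 8.90 ± 1.21 against glia (adjusted p = 2.56e-05) and 6.36 ± 1.08 against neurons (adjusted p = 6.43e-05, SE, edgeR).

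Erbb2 had 98.7 to 127 CPM (median 117) in the 6 OM-like sums, below each of the 6 glial sums (177 to 280). The log2 difference to glia of -1.01 ± 0.50 (SE) did not pass with edgeR (adjusted p = 0.1496). It passed with the cells of fewer foreign markers, which here were neuronal ones in both classes (-1.10, adjusted p = 0.00383, edgeR). Neither class was screened for markers of the other. It also passed with cells thinned to 100000 counts (-1.02, adjusted p = 0.0448, edgeR). Against neurons Erbb2 was higher by 5.41 ± 0.61 (SE, adjusted p = 6.12e-07, edgeR).

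Erbb3 had 0 to 13.9 CPM (median 3.74) in OM-like sums, far under the glial plates, with a log2 difference of -6.34 ± 0.77 (SE, adjusted p = 7.60e-06, edgeR). Its higher level than in neurons, 2.75 ± 0.77 (SE, adjusted p = 0.00542), depended on how cells were assigned. With classes taken from each cell's own marker scores it was -3.77 ± 0.79 (adjusted p = 0.000498), and the 9 glial markers summed to 23.6 to 323 CPM in OM-like sums against 49.9 to 133.4 in neurons. Their part in the result was not tested.

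Of the ligands, Nrg1 had 3.33 and 4.76 CPM in OM-like sums at E14.5 and at most 0.338 CPM in the other 4 plates. Its difference to glia of 2.64 ± 0.88 (SE, adjusted p = 0.0335, edgeR) was lost in 8 of 19 alternatives. These were DESeq2 (adjusted p = 0.106), the plate as a block (0.157), the first naming rule (0.186), and the fits without E14.5 replicate 1 (0.196), E14.5 replicate 2 (0.0651), E15.5 replicate 1 (0.0556), E15.5 replicate 2 (0.0779) or E16.5 replicate 3 (0.0558). Nrg3 had 0.253 CPM at most, in sums that held 17 counts in all. Its difference to glia of -2.15 ± 0.77 (adjusted p = 0.0464, edgeR) was also lost in 8 of 19. These were the block (0.107), no filter on low counts (0.0576), thinned cells (0.182), the first naming rule (0.165), and the fits without either E15.5 plate (0.108 and 0.106), E16.5 replicate 3 (0.107) or E17.5 replicate 1 (0.120). Against neurons both were lower, Nrg1 by -6.57 ± 0.92 (adjusted p = 8.36e-06) and Nrg3 by -9.30 ± 0.87 (adjusted p = 6.23e-08). Erbb4 (0 to 8.65 CPM) and Nrg2 (0 to 2.03 CPM) passed in neither comparison with edgeR. Against glia Nrg2 differed by 3.24 on the log2 scale (adjusted p = 0.0683) and passed with DESeq2 (0.0350), at a resolution of 2 (0.0494) and without E17.5 replicate 1 (0.0443). Its highest OM-like plate held 18 counts of 1 cell. Against neurons Erbb4 differed by 2.06 (adjusted p = 0.0618) and passed with DESeq2 (0.0271) and without E15.5 replicate 2 (0.0255).

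The next comparison followed neurons over 10 embryonic plates as a slope per day. Nrg1 and Erbb3 passed, 2 of 7 members where 21.2% of all genes did, and neither slope stood apart from plate series. In SGN-like sums Nrg1 had 173 and 168.2 CPM in the SS2_18 plates of E16.5 beside 188 in the SS2_20 plate, and 139.5 and 124 at E18.5. The E17.5 and E18.5 plates lay below all 7 earlier ones. Its slope was -0.13 ± 0.04 per day on the log2 scale (SE, adjusted p = 0.0364, edgeR). In the SS2_20 plates alone it was -0.06 ± 0.07 (adjusted p = 0.689), and the call was also lost in the cells of fewer foreign markers (0.362), with no filter (0.0521), and without E18.5 replicate 1 (0.121), E18.5 replicate 2 (0.187) or E16.5 replicate 2 (0.0513).

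Nrg3 rose within the SS2_20 plates and was lower again in the later series. Its neuronal level went from 27.0 and 35.6 CPM at E14.5 to 116 at E17.5, with 86.6 and 92.0 in the SS2_18 plates of E16.5, then 58.8 and 61.8 at E18.5 and 48.9 and 43.3 at P3. Within the SS2_20 plates no 2 stages overlapped. Of the E14.5 plates 1 is labelled with another Cre driver, which the other may share. Among the plates of E15.5 to E17.5, all PVcre, Nrg3 went from 70.7 and 72.1 to 116 CPM. The slope over all embryonic plates, 0.21 ± 0.13 per day on the log2 scale (SE), did not pass (adjusted p = 0.270), and that over the SS2_20 plates alone, 0.61 ± 0.11, did (adjusted p = 0.0182, edgeR). The share of neurons with a count of Nrg3 went from 34.8% and 44.3% at E14.5 to 95.7% at E17.5. Neurons with both ligands made up 33.3% and 42.6% at E14.5 and 87.1% at E17.5. E17.5 had 1 plate and E18.5 another plate series, so that stage and series cannot be told apart in the fall after E17.5.

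**Figure D2:**
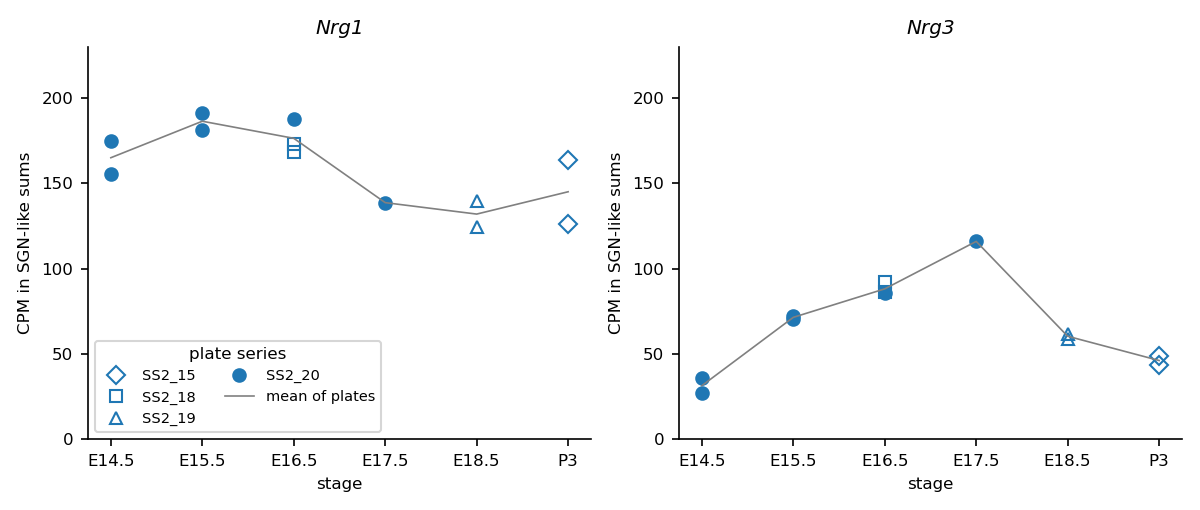
CPM of Nrg1 and Nrg3 in SGN-like sums (vertical axis) by stage (horizontal axis), with 1 point for each of 12 plates, a marker for each plate series and a line through the stage means. Nrg1 stays between 124 and 191 CPM, and Nrg3 climbs from 27.0 at E14.5 to 116 at E17.5 and lies at 43.3 to 61.8 in the SS2_19 and SS2_15 plates.

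Erbb3 rose in SGN-like sums over the embryonic plates, which also differed in glial markers. The study's methods describe glial contamination of neuronal clusters, greatest at E18.5, and remove the glial list, which holds Erbb3. In SGN-like sums Erbb3 had 15.9 and 12.7 CPM in the SS2_18 plates of E16.5 against 0.445 in the SS2_20 plate of that stage, 64.6 and 53.1 at E18.5, and 10.8 and 11.3 at P3. Its slope over the embryonic plates was 1.68 ± 0.38 per day on the log2 scale (SE, adjusted p = 0.0102, edgeR). With classes from each cell's own marker scores the adjusted p was 0.0643. The 9 glial markers summed to 49.9 to 133.4 CPM in the neurons of the SS2_20 plates, 589 and 697 in the SS2_18 plates and 2656 and 2658 at E18.5. At E18.5 Erbb3 was 2.43% and 1.997% of that sum in neurons and 2.39% and 2.13% in the glia-like cells of the same plates. In the neurons with the fewest glial markers (at or under the median of their plate) it was 12.8 and 13.9 CPM. Those 2 values were scaled to the plain library size, without TMM, unlike the other levels. Their part in the slope was not tested. At P3 the neurons held 5374 and 6505 CPM of glial markers, led by the myelin gene Mbp, and Erbb3 was 0.202% and 0.174% of the sum.

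Erbb2 did not pass in neurons, with 9.003 and 8.15 CPM in the neurons of the SS2_18 plates, 37.3 and 31.8 at E18.5, and 10.2 and 16.02 at P3. Its slope was 0.71 ± 0.30 per day on the log2 scale (SE, adjusted p = 0.120, edgeR), and -1.04 ± 0.64 in the SS2_20 plates alone. Nrg2, Erbb4 and Egfr stayed at 0 to 4.02 CPM in the neurons of all 12 plates.

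**Figure D3:**
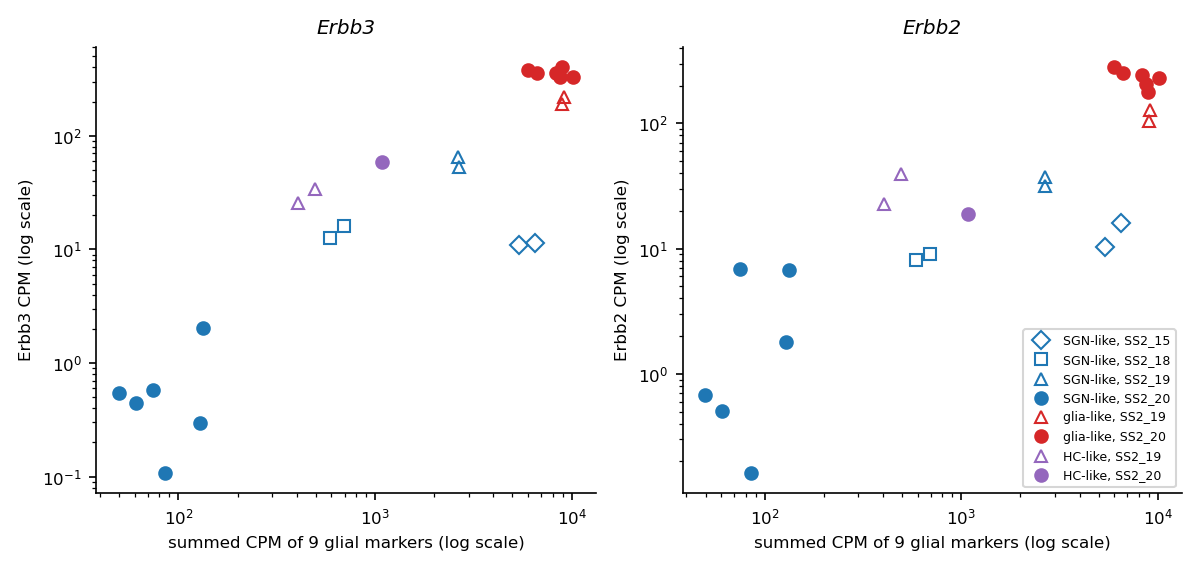
CPM of Erbb3 and Erbb2 (vertical axis, logarithmic) against the summed CPM of 9 glial markers (horizontal axis, logarithmic) in each SGN-like, glia-like and HC-like sum, with a marker for each plate series. Among neurons the E18.5 sums hold more of both than the SS2_20 sums, and the P3 sums, at 10.8 and 11.3 CPM of Erbb3, lie below the E18.5 sums at a higher level of glial markers.

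Between E18.5 and P3 no member passed in neurons, where 24.5% of all genes did. Nrg3 alone had an unadjusted p under 0.05, with a log2 difference of -0.39 ± 0.15 (SE, adjusted p = 0.0879, edgeR) beside a median of -0.11 over all genes. DESeq2 called 1 member, Nrg3 (adjusted p = 0.0302), which passed in 5 of 23 alternatives in all. Nrg1 differed by 0.14 ± 0.14 (adjusted p = 0.548). Erbb3 differed by -2.41 ± 1.11 (adjusted p = 0.149), with both P3 values below both E18.5 values, and passed without E16.5 replicate 3 (0.0214) and with thinned cells (0.0495). The P3 plates are a series of their own, so age and series cannot be told apart.

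In glia-like sums from E14.5 to E17.5 none of the 6 members tested passed, with edgeR or with DESeq2, and 0 had an unadjusted p under 0.05. Over all genes 0.768% passed. The slope of Erbb3 was -0.04 ± 0.05 per day and that of Erbb2 was -0.13 ± 0.07 per day on the log2 scale (SE, n = 6 plates). Nrg2 was not tested there because its counts were under the filter. Whether slopes differed between glia and neurons was tested as an interaction, in which 0 of 7 members passed (1.56% of all genes did), again with 0 at an unadjusted p under 0.05 and 0 by DESeq2.

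The 22 glia-like cells of E18.5 were described only. Their sums had 218 and 191 CPM of Erbb3 and 128 and 104 of Erbb2, below all 6 SS2_20 glial plates, and 29.5 and 25.7 CPM of Nrg1. They also held 2198 and 1836 CPM of the 8 neuronal markers, against 110 to 154 in the glia of the SS2_20 plates. Of the 9 mesenchymal markers they held 5157 and 6319 CPM.

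Hair cells were compared with neurons in the 2 plates of E18.5, which held 37 and 32 HC-like cells. The study's methods remove vestibular hair cells, which are no targets of spiral ganglion neurons, before its own account of hair cells. The study took only part of its E18.5 hair cells forward as cochlear. The HC-like class of the same plates was not divided so. Its values cannot be taken as those of cochlear hair cells alone. Egfr and Erbb4 were higher in hair cells and the ligands lower. Of the members 6 passed, where 57.1% of all genes did. Egfr had 40.0 and 30.2 CPM in HC-like sums and 0.730 and 0.430 in neurons, a log2 difference of 6.06 ± 0.36 (SE, adjusted p = 0.000186, edgeR). Erbb4 had 10.7 and 8.18 CPM against 0.880 and 0.753, a log2 difference of 3.65 ± 0.37 (SE, adjusted p = 0.000968, edgeR). Both were clear of the neuronal values. Erbb4 was counted in 56.8% and 43.8% of HC-like cells, and both genes in 54.1% and 37.5% of them. The 5 HC-like cells of E17.5 had 84.8 CPM of Erbb4 and 19.7 of Egfr.

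Nrg1 had 0.666 and 3.88 CPM in HC-like sums against 139.5 and 124 in neurons, a log2 difference of -5.74 ± 0.55 (SE, adjusted p = 0.000846, edgeR). Nrg3 had 1 count in all HC-like cells of E18.5 and 13529 in neurons. Neurons were higher by a ratio of 1445, with an exact 95% counting interval from 259 to 57083 that takes reads as independent. Over plates the log2 difference was -10.30 ± 0.39 (SE, adjusted p = 5.91e-05, edgeR), a size that rests on that 1 count. Nrg2 likewise had 1 count against 197, a ratio of 21.0 with an interval from 3.73 to 835. The call for Nrg2 (adjusted p = 0.0204) was lost with thinned cells (0.146).

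Erbb2 had 39.2 and 22.5 CPM in HC-like sums, overlapping the neuronal 37.3 and 31.8, with a log2 difference of -0.04 ± 0.28 (SE, adjusted p = 0.918, edgeR). Cells with fewer foreign markers were here those with fewer glial markers in both classes, not screened for the other class's markers. In those cells the difference of Erbb2 was 1.36 ± 0.35 (adjusted p = 0.0307, edgeR). Erbb3 had 33.9 and 25.8 CPM, below both neuronal values, and its difference of -0.85 ± 0.18 (adjusted p = 0.0134) was lost in those cells (0.342) and with the glial list kept for clustering (0.264). The HC-like sums held 494 and 404 CPM of glial markers, of which Erbb3 made 6.87% and 6.39%, and 1455 and 1271 CPM of 4 epithelial markers, against 3.94 and 2.74 in neurons. A small class led by epithelial markers (21 cells in 3 SS2_20 plates) had 67.0, 67.7 and 76.4 CPM of Erbb3. The part of such cells in the HC-like values was not tested.

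The neuron subtypes were compared at E18.5 and P3, where classes like the type I neurons Ia, Ib and Ic, which contact inner hair cells, and the type II neurons, which contact outer hair cells, were named from their markers. II-like classes held 26 and 20 cells in the E18.5 plates and 18 in the P3 plate used. Of the neurons 49.5% and 49.6% at E18.5 and 12.8% and 16.3% at P3 were left without a subtype. Nrg1 was lowest in II-like neurons. In II-like sums it had 86.4 and 74.2 CPM at E18.5 and 24.0 in 1 P3 plate. Ia-like sums had 205, 178, 120 and 203 CPM, Ib-like sums 126, 128, 121 and 113, and Ic-like sums 110, 102, 90.0 and 113, in the order of E18.5 and then P3 plates. No II-like sum reached a type I sum, whereas Ib and Ic sums overlapped.

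Of 6 members tested 2 were lower in II-like than in type I neurons, where 9.05% of all genes were. Nrg1 was lower by -1.22 ± 0.26 on the log2 scale (SE, adjusted p = 0.00379, edgeR). The call was lost with classes from marker scores (-0.52, adjusted p = 0.0945) and with the first and second naming rules (0.0861 and 0.323). Nrg3, at 31.1, 32.8 and 30.4 CPM in II-like sums and 29.4 to 68.1 in type I sums, was lower by -0.59 ± 0.16 (adjusted p = 0.0204). It was lost in 8 of 17 alternatives, among them marker scores (0.586), the first naming rule (0.707), and the fits without E18.5 replicate 1 (0.149), E18.5 replicate 2 (0.190) or P3 replicate 1 (0.0646), and the second naming rule turned its sign. Erbb3 (0.78 ± 0.30, adjusted p = 0.0904) and Erbb2 (1.00 ± 0.44, adjusted p = 0.140) did not pass in these sums with edgeR. Erbb3 passed in 6 of 17 alternatives, DESeq2 among them (0.0482, lowest 0.000611 with thinned cells), and Erbb2 in 5 (lowest 0.00297 at a resolution of 2), but with the second naming rule both were of the other sign. The 9 glial markers summed to 3241 and 2418 CPM in II-like sums of E18.5, 1848 to 2731 in Ia-like and Ic-like sums and 296 and 695 in Ib-like sums. Their part in these differences was not tested.

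Between Ic-like and Ia-like neurons no member of 6 passed, where 3.08% of all genes did. Nrg1 alone had an unadjusted p under 0.05, at -0.77 ± 0.25 on the log2 scale (SE, adjusted p = 0.139, edgeR), and DESeq2 called it (adjusted p = 0.0292). It passed in 5 of 16 alternatives, among them the fit without P3 replicate 1 (0.00219), the plate in which Ia-like neurons had 120 CPM.

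**Figure D4:**
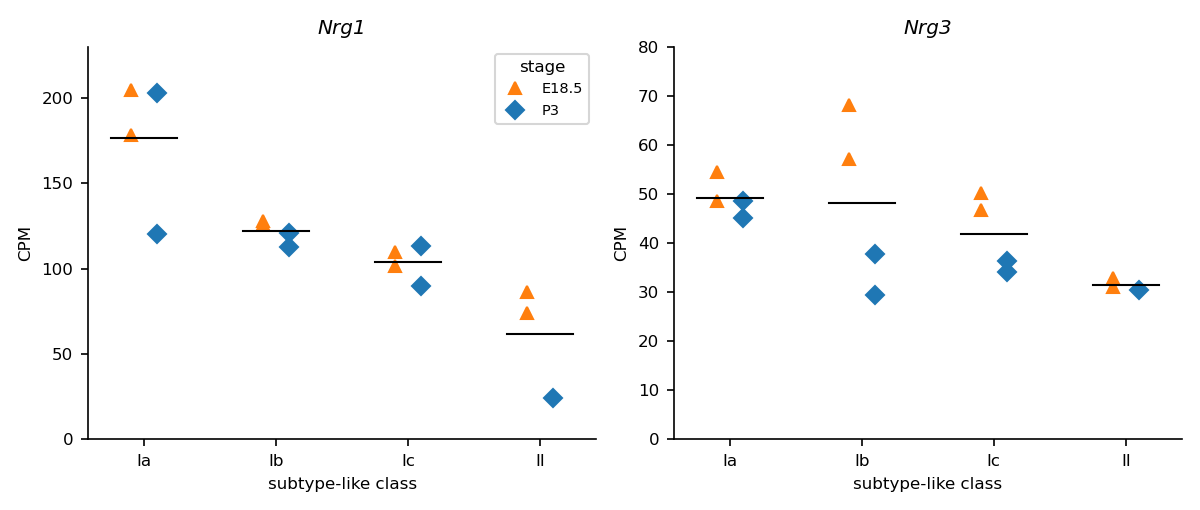
CPM of Nrg1 and Nrg3 (vertical axis) in the sums of each subtype-like class (horizontal axis), with 1 point for each plate of E18.5 or P3 and a line at the mean. II-like sums are from 3 plates and lie lowest for Nrg1, at 24.0 to 86.4 CPM.

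A list of 34 further genes of the pathway was chosen by role. In glia against neurons 12 of 29 tested were higher and 7 lower, where 56.5% of all genes passed in either direction. The median log2 difference was 0.15 beside 0.05 over all genes. Of the 34 genes, 9 are in the study's glial list. Gab1, the docking adaptor of receptor kinases, was higher in glia by 3.41 ± 0.18 (adjusted p = 3.97e-11), as was Adam17, a protease that sheds ErbB ligands, by 3.09 ± 0.23 (adjusted p = 3.07e-09). Rnf41, a ubiquitin ligase that lowers Erbb3, was lower in glia by -1.24 ± 0.16 (SE, adjusted p = 2.50e-06, edgeR).

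In OM-like against glia-like sums 25.9% of all genes passed in either direction. Of the 29 list genes 5 were higher (Spry1, Spry4, Shc1, Errfi1 and Pik3r1) and 3 lower (Gab1, Adam10 and Hbegf). Spry1, a feedback inhibitor of ERK signalling, was higher by 3.02 ± 0.37 (adjusted p = 8.19e-06) and Hbegf, a ligand of Egfr and Erbb4, lower by -1.48 ± 0.41 (adjusted p = 0.0128). Against neurons 12 were higher and 4 lower (Grb2, Rnf41, Lrig2 and Adam19), where 56.8% of all genes passed. In hair cells against neurons 12 of 30 were higher and 9 lower, where 57.1% of all genes passed. Btc, a ligand of Egfr and Erbb4, was higher in hair cells by 4.71 ± 0.47 (adjusted p = 0.000927) and Adam19 lower by -4.20 ± 0.19 (SE, adjusted p = 8.98e-05, edgeR).

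Over embryonic days in neurons 21.2% of all genes passed. Of 29 list genes 1 rose (Pik3r1) and 5 fell (Lrig2, Adam19, Egf, Shc1 and Dusp6). In the SS2_20 plates alone 0 rose and 2 fell. With 1 plate left out 2 to 6 passed, with 2 left without E18.5 replicate 2 or E14.5 replicate 2 and 3 without E18.5 replicate 1. Between E18.5 and P3 2 of 32 rose (Cdc42 and Lrig2) and 4 fell (Spry4, Shc1, Dusp6 and Rnf41), where 24.5% of all genes passed. There 3 passed without P3 replicate 2 or E18.5 replicate 1, and 11 without E16.5 replicate 3 or with DESeq2. Spry4, a feedback inhibitor, fell by 1.23 ± 0.21 (SE, adjusted p = 0.00159, edgeR) between E18.5 and P3. In glia over days and in the comparison of slopes none of 31 passed with edgeR, where 0.768% and 1.56% of all genes did. Of the 31, 9 and 10 had an unadjusted p under 0.05, and DESeq2 called 7 and 4. In II-like against type I neurons 9 of 30 were higher (8.50% of all genes were) and none lower, with a median of 0.41 beside 0.01 over all genes. Cblb, a ubiquitin ligase, led at 1.80 ± 0.28 (adjusted p = 0.000398). The count rests on how clusters were named, with 4 higher and a median of 0.06 under the first naming rule, 1 and -0.08 under the second, and 4 and 0.18 with marker scores. It was 4 without P3 replicate 1 or E18.5 replicate 1 and 6 without E18.5 replicate 2. In the cells of fewer foreign markers, here glial ones, 5 of 29 were higher and 1 lower. Their median was 0.20 beside -0.06 over all genes. Hbegf alone of 30 passed (0 to 4 over the alternatives) in Ic-like against Ia-like neurons, where 3.08% of all genes did. It was lower by -1.30 ± 0.31 (adjusted p = 0.0342, edgeR), and it was lost without any 1 of the 4 plates (adjusted p 0.0613 to 0.156).

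The genes whose log2 levels ran most like each member over the 35 class sums were listed among 16052 genes, as a description in which sums of 1 plate share animals. Nrg1 ran with Epha10 (Pearson r 0.938) and Map1b (0.937), Nrg3 with Pou4f2 (0.977), Erbb3 with Sox10 (0.956), Erbb2 with Plin3 (0.934) and Egfr with Gjb6 (0.893). Sox10 is 1 of the markers that named the glia-like class. Among the members Nrg1 and Nrg3 had r 0.890 and Erbb2 and Erbb3 had r 0.635. Erbb4 had no gene above 0.753.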

How the data were processed

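Each plate of 384 wells is 1 sample of sorted single cells. The authors aligned reads with STAR to mm10 and ERCC sequences, kept uniquely mapped reads and deposited raw read counts per gene and well, with no normalization. The members and gene lists were chosen with earlier results of these data known. A well was kept as a cell (4226 in all) if over 1000 genes were detected in it and ERCC sequences took less than 5% of its counts. 1 plate in the table belongs to no sample used here and was left out.

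Cells were clustered by stage with scanpy 1.11.5 and leidenalg 0.10.2 (2000 variable genes, 30 components, 30 neighbours, resolution 1) without the study's glial list (1364 genes in the table). No doublet caller was run. Clusters were named from marker lists, and a cluster whose leading genes were another class's markers stayed unnamed, which left 277 cells without a class. The naming rule was set after cluster tables had been seen, which also showed cluster means of Erbb3, Nrg1 and Nrg3. It went through 3 versions before any member was tested. The third is reported and the first 2 are alternatives. They changed which E18.5 cluster was called II-like, so the subtype results depend on that choice. At P3 a block of neuron-scoring cells stayed unnamed because glial or mesenchymal genes led them.

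Counts were summed over the cells of a class in a plate (at least 5 cells, 3 for hair cells) and tested with edgeR 4.0.16 in R 4.3.3 (TMM, filterByExpr, quasi-likelihood F test, Benjamini-Hochberg over all genes tested, adjusted p under 0.05). The 3 classes of the SS2_20 plates shared 1 fit. SE is the log2 difference over the root of F. DESeq2 1.42.0 was an alternative. So were the cells of fewer foreign markers, those at or under the median of their class and plate. Neurons and hair cells were ranked by glial markers, and glia-like and OM-like cells by neuronal markers. The named genes are the 7 members whatever their values and, of the pathway list, up to 3 in each direction with the smallest p in each comparison. Fits were tested on simulated counts in which only a small part of the genes changed. In glia against neurons 40.4% of changes of 1 and 72.5% of changes of 2 on the log2 scale were recovered (14420 genes). At P3 against E18.5 these were 19.15% and 52.5% (16950 genes). In the data 56.5% and 24.5% of all genes passed in these comparisons. The adjusted threshold thus differed from the simulated one, and the shares recovered do not carry over to the data. Shares of cells and counting intervals cover counting error only, since reads without molecule barcodes are not independent. Classes of a plate come from the same pooled animals, so the plate was tried as a block. Same-plate correlations of deviations were 0.0073 to 0.104 between glia and neurons. As a check for copied plates, neuronal sums of 1 stage were compared by chi-square, which was 25.5 to 119 times its degrees of freedom. With reads that are not independent, this cannot tell whether plates came from separate pools. Promoters are RefSeq's (GRCm38.p6), and gene positions are those of GENCODE for mm10.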

Additional observations from a re-analysis of the deposited data

Results flagged for a closer look

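Of 41 groups of 4 to 10 plates examined, 6 held a highest plate far from the rest by Dixon's ratio. The nominal rate of that rule, about 1 in 20, assumes normal values. It does not hold for groups near 0, so the number of flags is a description only. Nrg2 had 2.03 CPM in the OM-like sum of E15.5 replicate 2, from 18 counts in 1 of 38 cells. Erbb3 had 2.02 CPM in the SGN-like sum of the same plate, from 40 counts in 3 of 87 cells. Egfr had 4.02 CPM in the SGN-like sum of E14.5 replicate 2, from 62 counts in 2 of 61 cells. The other 3 stood out against plates at 0, where any count in a single plate meets the rule. Erbb4 had 0.199 CPM in Ib-like sums and Egfr 0.0859 CPM in Ia-like sums of E18.5 replicate 2, and Egfr had 0.260 CPM in Ic-like sums of E18.5 replicate 1, from 1 to 8 counts in 1 or 2 cells.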

How the results depend on the processing

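Of 1209 recomputed values of the members, 1066 kept their direction and side of the threshold, 43 no longer passed, 32 newly passed and 65 changed sign. Apart from Egfr in glia against neurons and Erbb3 in OM-like against SGN-like sums, the sign changes were among values that had not passed, or in Nrg3 by subtype. Calls for Nrg1, Nrg3, Erbb2 and Erbb3 in glia against neurons held under every alternative run. The cause of the changes was not tested. Few counts lay behind Nrg2 in glia and mesenchyme and Egfr in glia and neurons, and subtype results rest on how clusters were named.

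Counts of genes that moved by over 1.5 times were as follows. In OM-like against glia-like sums 2491 genes passed with the cells of fewer foreign markers instead of 3814. Over days in neurons 800 passed in the SS2_20 plates alone instead of 3101. At P3 against E18.5 2674 passed with fewer foreign markers instead of 4360. Over days in glia 81 genes rose and 41 fell; these became 407 and 346 with DESeq2, 118 and 77 with marker scores, 24 and 10 with fewer foreign markers, 108 and 74 at a resolution of 2, 52 and 44 with the glial list kept, and 0 and 0 with the first naming rule (edgeR, 2088 at an unadjusted p under 0.05). For the difference of slopes 255 became 765 with DESeq2, 31 with the plate as a replicate block and 117 with fewer foreign markers. For II-like against type I neurons 2545 became 1178 with marker scores, 1555 with fewer foreign markers, 1434 with the first naming rule and 476 with the second. For Ic-like against Ia-like neurons 446 became 780 with no filter and 817 with DESeq2. Beside the calls given with the results, the block changed no other call of a member.

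Leaving out 1 plate at a time gave 7611 to 7903 genes for glia against neurons, 3029 to 3447 for OM-like against glia-like, 7719 to 7934 for OM-like against SGN-like, 1784 to 3053 over days in neurons (lowest without E18.5 replicate 2), 2077 to 5161 at P3 against E18.5 (lowest without E18.5 replicate 1), 6 to 96 rising and 3 to 72 falling over days in glia (both lowest without E17.5 replicate 1 and highest without E16.5 replicate 3), 54 to 190 for the difference of slopes (lowest without E17.5 replicate 1), 1266 to 3048 for II-like (lowest without P3 replicate 1) and 183 to 418 for Ic-like neurons (lowest without E18.5 replicate 2). No count was made so for hair cells, where no residual degree of freedom remained.

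Values that changed sign are on the log2 scale. With the glial list kept for clustering Egfr in glia against neurons was 1.33, Nrg3 and Erbb4 over days in glia 0.080 and 0.020, the slope difference of Erbb4 0.12, Erbb2 in hair cells 0.53, and Nrg2 and Nrg3 in Ic-like neurons 0.022 and 0.068. With fewer foreign markers Egfr in glia was 3.65, Erbb2 at P3 0.54, Nrg3 over days in glia 0.14, the slope difference of Erbb2 -0.26, Erbb2 in hair cells 1.36, Erbb3 and Dusp6 in II-like neurons -0.13 and -1.15, and Nrg2 in Ic-like neurons 0.089. With marker scores Erbb3 in OM-like against SGN-like sums was -3.77, Nrg3 over days in glia 0.44, the slope differences of Erbb3 and Erbb4 0.36 and 0.017, and Erbb2, Erbb3 and Erbb4 in II-like neurons -0.18, -0.25 and -0.38. In the SS2_20 plates alone the slopes of Nrg2 and Erbb2 in neurons were 0.18 and -1.04. At a resolution of 2 Nrg3 was 0.42 over days in glia and 0.024 in Ic-like neurons. With thinned cells the slope differences of Erbb3 and Erbb4 were 0.093 and 0.26, and Erbb3 in Ic-like neurons was 0.0091. With the block the slope difference of Erbb4 was 0.18 and Erbb2 in Ic-like neurons 0.055, and with no filter the latter was 0.00056. Of the alternatives added after the data were seen, the first naming rule gave Erbb2 and Erbb4 over days in glia 0.029 and 0.13, the slope difference of Erbb4 0.20, and Erbb2 and Erbb3 in Ic-like neurons 0.32 and 0.32. The second gave Nrg3, Erbb2, Erbb3, Erbb4 and Dusp6 in II-like neurons 0.22, -0.81, -0.69, -0.33 and -0.082, and Erbb2 and Erbb3 in Ic-like neurons 0.58 and 0.52. Without melanocyte-marked cells Nrg3 over days in glia was 0.018, and with type I classes summed Erbb4 in II-like neurons was -0.24.

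With 1 plate left out the sign changed for Nrg2 over days in neurons (-0.32 to 0.010), Nrg1 at P3 (-0.076 to 0.29), Nrg1, Nrg3, Erbb3 and Erbb4 over days in glia (-2.36 to 1.25, -0.36 to 0.95, -0.071 to 0.010 and -0.74 to 0.39), the slope differences of Nrg1, Nrg3, Erbb3, Erbb4 and Egfr (-1.82 to 1.17, -1.15 to 0.14, -0.21 to 0.21, -1.74 to 0.76 and -1.06 to 4.16), Erbb2 in hair cells (-0.33 to 0.24), and Nrg2, Erbb2 and Erbb3 in Ic-like neurons (-0.37 to 0.20, -0.17 to 0.18 and -0.13 to 0.015).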

Other observations

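Cells of the small class led by epithelial markers at E14.5 and E15.5 (8, 8 and 5 cells) carried several receptors. Erbb2 had 13.7, 69.8 and 205 CPM there, Erbb4 36.5, 1.68 and 35.9 CPM, and Egfr 0, 45.4 and 208 CPM. Nrg2 and Nrg3 had no count in them. With so few cells the spread between plates was wide and no test was run.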
